A study of Mus musculus with 6 samples.

Results

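The genes described here make cholesterol and fatty acids, regulate that synthesis or move its products, and they were chosen by name from a list of 45 mouse genes. Of these 45, 26 had a row in the authors' deposited table of changes between p63-excised and p63-intact tumours, among 16381 entries in all. Expression was measured on Illumina bead arrays in RNA from whole cutaneous squamous cell carcinomas, which had been induced with the carcinogen DMBA (7,12-dimethylbenz[a]anthracene) in mice of a mixed c57BL/6 and CD1 background. The donor genotype was p53+/-, p63L/L with K14-CreER, a Cre recombinase that is active in keratin 14 cells once tamoxifen is given. Disaggregated primary tumour cells were then placed in Nude mice, which lack T cells, and grew for 13 days. The p63-excised group (3 arrays) then received tamoxifen and the p63-intact group (3 arrays) vehicle, daily for 5 days, and harvest followed 1 to 3 days after dosing ended. Both groups carry the same alleles, heterozygous p53 and Cre included. Since every excised tumour also received the drug, effects of excision and of tamoxifen cannot be told apart. Cells that the Nude host adds to a tumour do not carry the donor alleles. Nothing in the labels says that each numbered tumour came from its own mouse, and the p-values then cover only how far these samples spread, in part perhaps for technical reasons.

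Cholesterol is built from acetyl-CoA through mevalonate, isoprenoids, squalene and lanosterol, and the enzymes of this route are induced together by the transcription factor SREBP-2 when sterols in the endoplasmic reticulum run low. SREBP-1 induces genes of fatty acid synthesis, elongation and desaturation. In stratified epithelium these lipids build membranes and, in the outer layers, the permeability barrier. Tamoxifen binds a microsomal sterol-binding site that contains Ebp, the isomerase that moves a double bond in the sterol ring, and high doses of the drug are known to make its sterol substrates accumulate. The sterol genes are therefore given in the order of the pathway.

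The deleted gene, Trp63, had a log2 change of -0.25 ± 0.11 (SE) per the authors' deposited table (p = 0.0639, adjusted p = 0.751). No source used here tells whether its probe lies in the excised exons, and the value is no check of the labels. Among keratinocyte markers, Krt14 and Krt5, the keratins of the basal layer, had mean log2 levels of 14.02 and 11.65 per the authors' deposited table. The number of probes detected above background was 13214, 11964 and 14520 on p63-excised arrays 1, 2 and 3. On p63-intact arrays 1, 2 and 3 it was 16096, 13757 and 15504. The 2 ranges overlapped. Each p63-excised array had fewer detected probes than the p63-intact array of the same number, but nothing in the labels pairs them. Among unnamed probes, 604 of 13727 (4.4%) passed a limma test at a Benjamini-Hochberg adjusted p of 0.05. That number depends on the scaling and on single arrays, being 50 with median scaling and 208 to 626 with 1 array left out. Probes carry no gene names in these files, so named genes have no values by array. The levels of each group given below are those implied by the mean level and the change per the authors' deposited table, with both groups weighted equally.

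In the p63-excised tumours the sterol isomerase gene Ebp (EBP in the table) rose and the choline kinase gene Chka (CHKA) fell, and the other 24 listed members did not pass the test. These 2 of 26 compare with 190 of all 16381 listed entries, or 1.16%, at a Benjamini-Hochberg adjusted p under 0.05 with each of the 45281 probes on the array taken as a test. By direction, 0.659% of all entries rose and 0.501% fell. Entries run up to a p of 0.462, and the 26 listed members are therefore not a neutral sample of the 45. At an unadjusted p under 0.05 there were 11 members, 5 higher and 6 lower, against 19.9% of all listed entries, 9.31% higher and 10.6% lower. At or above a mean log2 level of 5.5, which 20 members reached, it was 10 of 20, against a background of 42.9% of entries. At that level 3.87% of entries had an adjusted p under 0.05. The members' share at an unadjusted p is therefore near the background of entries of like level. The median log2 change was -0.09 over the 26 members and 0.05 over all listed entries. Among entries whose mean log2 level reached 5.5 the order turned, with medians of 0.16 over 20 members and -0.10 over all 4269 entries. Positive changes were seen for 12 members and negative ones for 14, but 3 of the positive ones (Lss, Cyp51 and Acacb) are smaller than the shift of -0.19 by which median scaling moved the median change of tested probes.

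**Figure D1:**
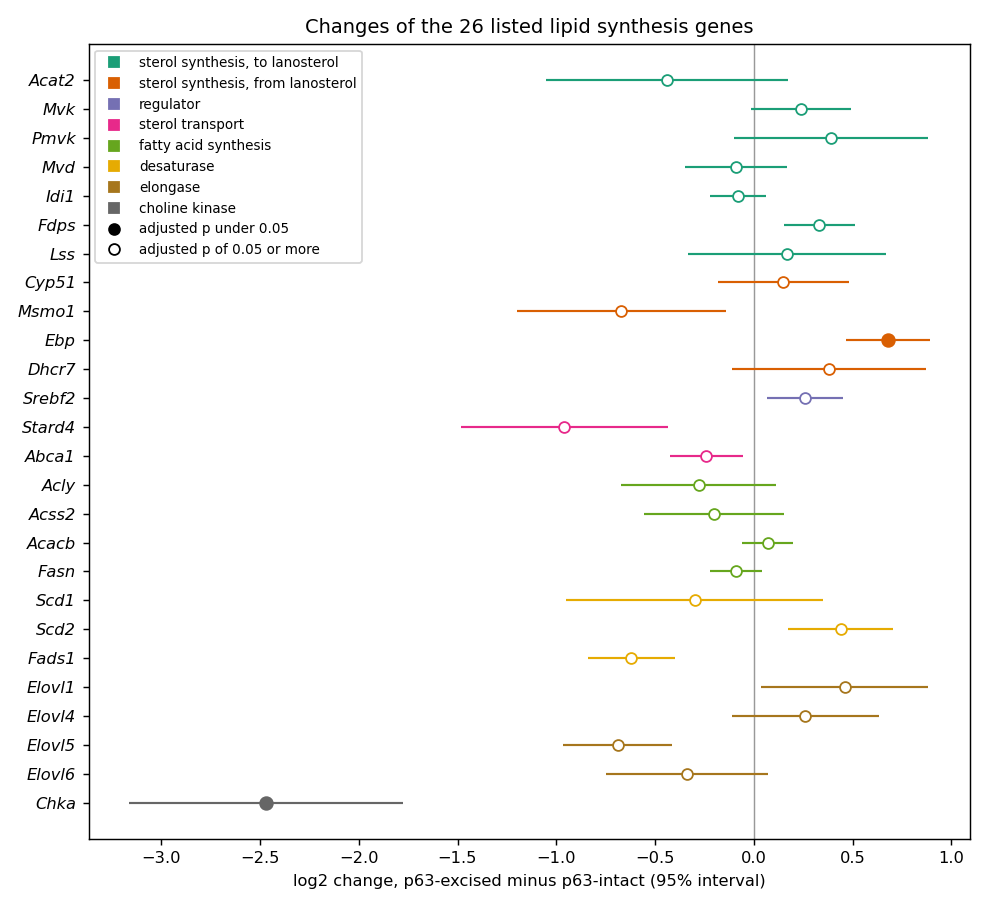
Log2 change, p63-excised minus p63-intact, of the 26 listed members by role, with sterol synthesis in pathway order from the top. Points are the values of the authors' deposited table, bars are 95% intervals from its t scores, and filled points passed the adjusted test. Ebp at 0.68 and Chka at -2.47 are the filled points.

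The part of the pathway that runs up to lanosterol showed small values in both directions. Of its 10 genes 7 were listed, none passed, and 1 had an unadjusted p under 0.05. Acat2, the thiolase that joins acetyl-CoA units, stood at -0.44 on the log2 scale per the authors' deposited table (95% interval -1.05 to 0.17). Of the kinases that phosphorylate mevalonate, Mvk had a change of 0.24 (95% interval -0.01 to 0.49) per the authors' deposited table. Pmvk, the next kinase, stood at 0.39 in log2 there (95% interval -0.10 to 0.88, authors' deposited table). Both kinases had positive estimates, with intervals that include 0. The decarboxylase gene Mvd and the isomerase gene Idi1 had log2 changes of -0.09 and -0.08 per the authors' deposited table. Idi1 had a mean log2 level of 4.89, close to 4.62, the lowest level listed, which leaves little room for a fall to show.

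Fdps, whose enzyme makes farnesyl diphosphate for sterols and for protein prenylation, had the smallest p of this stretch. Its implied log2 level was 8.82 in p63-excised tumours and 8.49 in p63-intact tumours. The log2 change was 0.33 ± 0.08 (SE, 95% interval 0.15 to 0.51, adjusted p = 0.216) per the authors' deposited table. That is a 1.25-fold difference that did not pass over all tests. Lss, the cyclase that closes lanosterol, stood at 0.17 in log2 per the authors' deposited table (95% interval -0.33 to 0.67).

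After lanosterol the values spread further apart. Of 8 genes 4 were listed and 1 passed. Cyp51, the demethylase that opens this stretch, had a log2 change of 0.15 per the authors' deposited table (95% interval -0.18 to 0.48). Msmo1 (SC4MOL in the table), which starts the removal of the methyl groups at carbon 4, had an implied log2 level of 7.66 in p63-excised tumours and 8.33 in p63-intact tumours. Its change was -0.67 ± 0.22 (SE, 95% interval -1.20 to -0.14) per the authors' deposited table, short of the threshold (p = 0.0201, adjusted p = 0.481). Ebp acts after demethylation is complete. Its implied log2 level was 7.16 in p63-excised tumours and 6.48 in p63-intact tumours, a 1.61-fold rise. The change of Ebp (EBP) was 0.68 ± 0.09 (SE, 95% interval 0.47 to 0.89) per the authors' deposited table, with an adjusted p of 0.045. By size, 339 entries of the table had a more positive change. The call lies near the threshold. Without entries whose mean log2 level was below 5.5, and with the number of tests kept, its adjusted p was 0.0518. That setting can only raise an adjusted p. With the tests reduced to 9240 to match, a setting chosen after seeing the data, its adjusted p was 0.0106. With no level minimum and the listed entries taken as all tests, the adjusted p was 0.0163. The listed entries are a lower bound on the tests, since entries end at a p of 0.462. Dhcr7, the last reductase before cholesterol in one branch, stood at 0.38 (95% interval -0.11 to 0.87) in log2 per the authors' deposited table. Msmo1 and Ebp, which act on successive groups of intermediates, thus had intervals on opposite sides of 0.

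The 250 bases before the RefSeq start of Ebp, of Msmo1 and of Chka are shown because Ebp and Chka are the members that passed and Msmo1 is the listed sterol synthesis gene with the most negative change. Capitals mark CCAAT boxes (CCAAT on either strand, read as ATTGG on the other), which bind NF-Y, a partner of SREBP, and GC boxes (GGGCGG or CCGCCC), which bind Sp1. Coordinates are those of mouse build GRCm38.p6.
Ebp, chrX:8193513-8193762, minus strand: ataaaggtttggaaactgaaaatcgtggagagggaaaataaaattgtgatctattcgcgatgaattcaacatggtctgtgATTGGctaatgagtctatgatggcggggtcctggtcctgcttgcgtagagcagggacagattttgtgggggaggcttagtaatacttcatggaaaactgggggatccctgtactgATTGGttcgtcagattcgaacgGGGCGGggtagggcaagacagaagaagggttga
Msmo1, chr8:64733579-64733828, minus strand: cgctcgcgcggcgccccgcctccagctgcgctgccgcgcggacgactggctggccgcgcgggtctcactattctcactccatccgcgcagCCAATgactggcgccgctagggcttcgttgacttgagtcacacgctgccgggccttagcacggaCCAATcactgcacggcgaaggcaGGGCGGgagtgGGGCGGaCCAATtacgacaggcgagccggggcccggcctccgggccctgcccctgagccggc
Chka, chr19:3851523-3851772, plus strand: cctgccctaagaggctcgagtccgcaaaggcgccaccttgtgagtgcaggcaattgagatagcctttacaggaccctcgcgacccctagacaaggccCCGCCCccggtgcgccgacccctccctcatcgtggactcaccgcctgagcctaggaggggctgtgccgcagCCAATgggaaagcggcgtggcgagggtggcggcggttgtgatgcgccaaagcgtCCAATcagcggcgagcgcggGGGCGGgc

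The windows of Ebp and Chka hold 2 CCAAT boxes each and that of Msmo1 holds 3. RefSeq windows of this length were matched by symbol for 35 of the 45 members. Among sterol synthesis genes, 14 of 15 had a CCAAT box in at least 1 window, the exception being Acat2, against 37.5% of all 27025 genes with a window. GC boxes were found for 14 of 15, the exception being Pmvk, against 35.4% of all genes. The sterol response element TCACNCCAC, sought on both strands, was found for 1 of the 15, Hmgcs1, against 1.22% of all genes, and the E-box CACGTG for 3 of 15 against 6.86%. Fatty acid genes had a CCAAT box for 6 of 12 and a GC box for 7 of 12. These matches describe letters in a short window and are not sites of binding.

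Regulators and transporters of sterols gave 3 listed members of 10. Srebf2, the gene of SREBP-2, had an implied log2 level of 6.73 in p63-excised tumours and 6.47 in p63-intact tumours. Its change was 0.26 ± 0.08 (SE, 95% interval 0.07 to 0.45, p = 0.0154, adjusted p = 0.433) per the authors' deposited table. Stard4 (STARD4), a carrier that moves cholesterol between membranes and is itself an SREBP-2 target, had implied log2 levels of 5.48 in p63-excised tumours and 6.44 in p63-intact tumours. The difference was -0.96 ± 0.22 (SE, 95% interval -1.48 to -0.44, adjusted p = 0.217) per the authors' deposited table, 1.94-fold lower, and it did not pass. Abca1, the exporter of cholesterol that is induced by oxysterols through LXR, stood at -0.24 ± 0.08 (SE, 95% interval -0.43 to -0.05, adjusted p = 0.471) per the authors' deposited table. Its mean log2 level of 4.88 is near the lowest listed. Srebf2 and its target Stard4 thus had estimates of opposite sign.

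**Figure D2:**
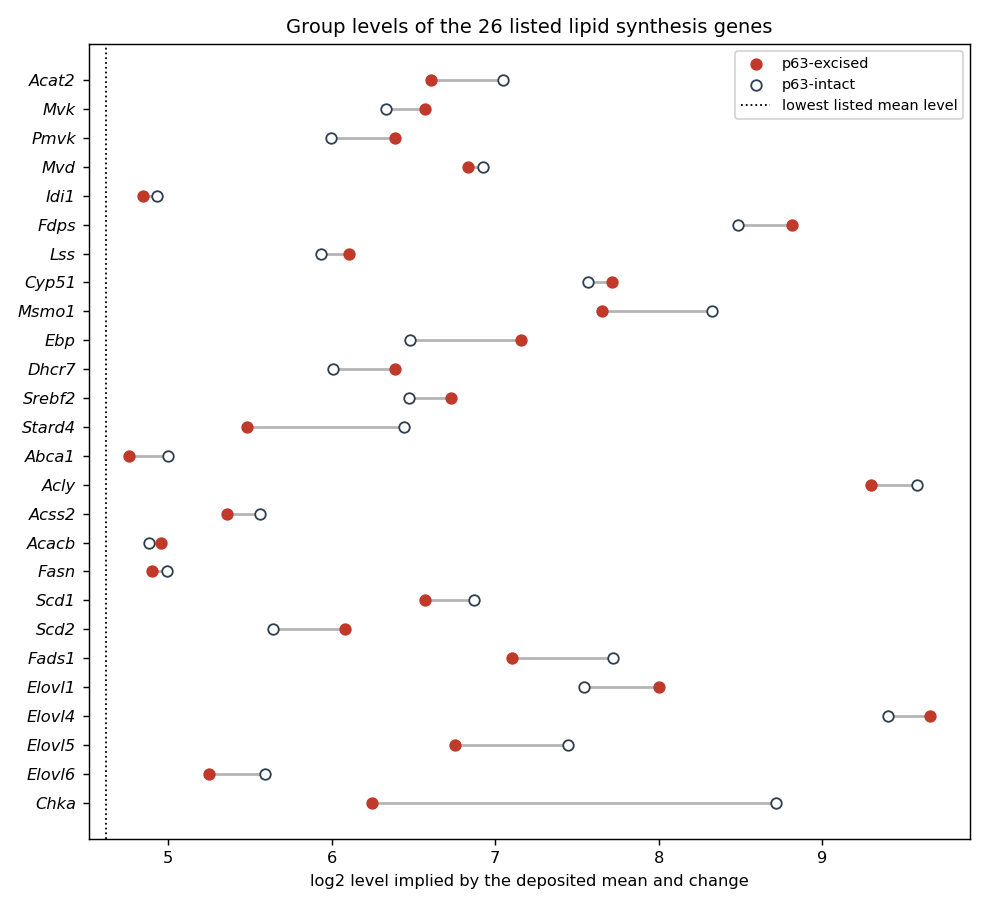
Log2 levels of the 26 listed members in p63-excised tumours (filled) and p63-intact tumours (open), as implied by the mean level and change per the authors' deposited table. Probes of different genes bind with different strength, so only the 2 points of a gene can be compared. Idi1, Abca1, Acacb and Fasn lie close to the dotted line at the lowest listed level of 4.62.

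Genes that supply carbon and build palmitate were not called. Of 6 such genes 4 were listed, with log2 changes from -0.28 to 0.07, and none had an unadjusted p under 0.05. Acly, which makes cytosolic acetyl-CoA from citrate, stood at -0.28 in log2 per the authors' deposited table (95% interval -0.67 to 0.11). Acss2, which makes it from acetate, stood at -0.20 there (95% interval -0.55 to 0.15, authors' deposited table). For Fasn, the fatty acid synthase itself, and Acacb, a carboxylase that makes malonyl-CoA, the mean log2 levels were 4.95 and 4.92 per the authors' deposited table. Their log2 changes were -0.09 for Fasn and 0.07 for Acacb per the authors' deposited table.

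Desaturases and elongases, which shape the chains after synthesis, held members of both signs. Fads1 (FADS1), the delta-5 desaturase of polyunsaturated fatty acids, had implied log2 levels of 7.10 in p63-excised tumours and 7.72 in p63-intact tumours. Its change was -0.62 ± 0.09 (SE, 95% interval -0.84 to -0.40, adjusted p = 0.0641) per the authors' deposited table. Elovl5 (ELOVL5), which elongates the same polyunsaturated chains, had implied log2 levels of 6.76 in p63-excised tumours and 7.45 in p63-intact tumours. Its change was -0.69 ± 0.12 (SE, 95% interval -0.96 to -0.42, adjusted p = 0.0882) per the authors' deposited table. Neither passed with every probe taken as a test. With 35457 tests, the listed entries over their highest p, adjusted p was 0.0502 for Fads1 and 0.0691 for Elovl5. Both passed with the listed entries as all tests (adjusted p = 0.0232 for Fads1 and 0.0319 for Elovl5). That count is a lower bound on the tests, since entries end at a p of 0.462. Fads1 and Elovl5 act in turn on the same chains and had estimates of like size and sign. Whether they changed together was not tested, and Scd2, Elovl1 and Elovl4 had positive estimates.

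Scd2, one of the delta-9 desaturases that make monounsaturated fatty acids, stood higher, with implied log2 levels of 6.08 in p63-excised tumours and 5.64 in p63-intact tumours. The log2 change of Scd2 was 0.44 ± 0.11 (SE, 95% interval 0.17 to 0.71, adjusted p = 0.278) per the authors' deposited table. Scd1, its close paralog, stood at -0.30 (95% interval -0.95 to 0.35) per the authors' deposited table. The intervals of the 2 paralogs overlap, and no source used here tells whether their probes separate them. Elovl1, which makes very long saturated chains for ceramides, stood at 0.46 (95% interval 0.04 to 0.88, p = 0.0369) in log2 per the authors' deposited table. Elovl4, which makes the ultra-long chains of barrier ceramides, stood at 0.26 (95% interval -0.11 to 0.63, authors' deposited table). Elovl6, which elongates palmitate, stood at -0.34 (95% interval -0.75 to 0.07) per the authors' deposited table. Over the 16 fatty acid genes, 11 were listed, 4 positive and 7 negative with a median log2 change of -0.20. Over the 18 sterol synthesis genes, also 11 were listed, 7 positive and 4 negative with a median of 0.17. No test was made of these medians, which rest on listed members alone.

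Chka, which phosphorylates choline in the first step of phosphatidylcholine synthesis, had the largest change of all listed members. Its implied log2 level was 6.25 in p63-excised tumours and 8.72 in p63-intact tumours. The change of CHKA was -2.47 ± 0.29 (SE, 95% interval -3.16 to -1.78) per the authors' deposited table, 5.55-fold lower, with an adjusted p of 0.0325. Only 15 of 16381 entries had a more negative change. Other genes of the choline and ethanolamine steps, picked out after their values were seen from a list with 17 positive and 15 negative entries, had negative changes that did not pass. Cept1, which joins phosphocholine or phosphoethanolamine to diacylglycerol, stood at -0.69 ± 0.17 (SE, adjusted p = 0.25) per the authors' deposited table. Pcyt1a, the enzyme gene that acts between Chka and Cept1, stood at -0.30 (adjusted p = 0.581) in log2 per the authors' deposited table. Pcyt2, its counterpart for ethanolamine, stood at -0.22, and Chkb, the second choline kinase, at -0.13 (authors' deposited table). Genes that act before these steps, on the glycerol side, had estimates of both signs that did not pass either. Lpin3 and Lpin2, which make diacylglycerol, stood at 0.50 (adjusted p = 0.212) and -0.15, and Agpat2 at 1.07 (adjusted p = 0.0854), per the authors' deposited table.

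**Figure D3:**
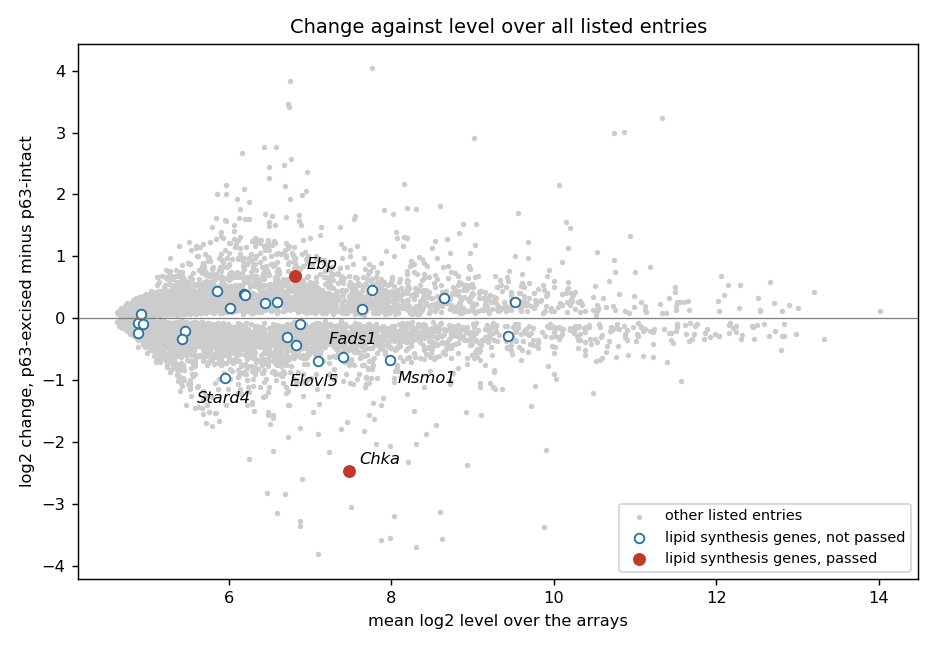
Log2 change, p63-excised minus p63-intact, against mean log2 level for all 16381 listed entries (grey) and the 26 listed members (open where not passed, filled where passed). The empty band around 0 reflects the listing of entries with p up to 0.462. Chka lies among the most negative entries at -2.47, and Ebp at 0.68 lies within the spread of entries at its level.

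Not listed, and not analysed here, were 19 members. They comprise the sterol synthesis genes Hmgcs1, Fdft1, Sqle, Tm7sf2, Nsdhl, Hsd17b7 and Sc5d, the regulators Srebf1, Scap, Insig1 and Insig2, and the transporters Npc1, Npc1l1 and Abcg1. The fatty acid genes Me1, Acaca, Fads2, Elovl3 and Elovl7 complete them. Whether each had a p above 0.462 or was left out for another reason cannot be read from the table.

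A wider list of sterol, lipoprotein uptake and SREBP processing genes gave no call among 19 listed entries, 4 having an unadjusted p under 0.05 against 19.9% of all entries, with 11 positive and 8 negative and a median log2 change of 0.08. Those with the smallest p were Vldlr, a lipoprotein receptor gene, at -0.44 (adjusted p = 0.149), and Nus1, a subunit gene of the dolichol-making prenyltransferase, at 0.31 (adjusted p = 0.186), per the authors' deposited table. Lbr, the lamin B receptor with sterol reductase activity, stood at -0.35 (adjusted p = 0.371) per the authors' deposited table. Among 32 listed entries for other fatty acid and glycerolipid genes none passed and 13 had an unadjusted p under 0.05, against 19.9% of all entries and 42.9% of those at a level of at least 5.5, 17 being positive and 15 negative with a median of 0.09. Agpat2, which makes phosphatidic acid, was listed under a pair of names, at 1.07 (adjusted p = 0.0854) and 1.00 (adjusted p = 0.127) in log2 per the authors' deposited table. G6pdx, the first enzyme of the pentose phosphate pathway, which supplies NADPH for lipid synthesis, stood at 0.43 (adjusted p = 0.123) per the authors' deposited table. The 2 entries of Agpat2 gave like estimates.

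Because RNA came from whole tumours, fewer cells of a type and less RNA per cell cannot be told apart. Sebaceous glands and fat make much lipid, and their listed markers were near the lowest level, apart from Pnpla2 and Lpl. Pparg, Plin5 and Dgat2l6, the 3 listed of 13 sebaceous markers, had mean log2 levels of 4.87 to 4.88 and changes of -0.11 to 0.11 per the authors' deposited table. Of 11 adipocyte markers 6 were listed, and Fabp4, Cidec, Retn and Lipe had mean log2 levels of 4.83 to 5.04 per the authors' deposited table. Pnpla2, a lipase gene that other tissues also express, stood at 1.16 (adjusted p = 0.251) with a mean log2 level of 6.74, Lipe at 0.10 (adjusted p = 0.909), and Lpl at -0.33 (adjusted p = 0.583) per the authors' deposited table. Macrophages, which express Abca1, had 9 marker entries for 7 genes, 7 of them negative, 3 at an unadjusted p under 0.05 (19.9% of all entries) and none past the adjusted test. Lyz1 and Lyz2 account for 4 of the 7 negative entries. Lyz2 stood at -1.73 (adjusted p = 0.281) and, in its other entry, at -0.31, and Lyz1 at -0.21 (adjusted p = 0.468) and -0.69, per the authors' deposited table. Adgre1 stood at -0.27 (adjusted p = 0.584), while Cd14 at 0.42 and Cd68 at 0.47 were positive, per the authors' deposited table. All 15 skeletal muscle markers were listed and positive, from 0.07 to 1.60 in log2, 5 at an unadjusted p under 0.05 and none past the adjusted test, per the authors' deposited table. Of all entries, 51.0% were positive and 9.31% were higher at an unadjusted p under 0.05. Keratinocyte markers were negative for 10 of 14 listed, and Col17a1 fell by 0.77 per the authors' deposited table (adjusted p = 0.0487). Its adjusted p was 0.0561 without entries below a mean log2 level of 5.5, with the number of tests kept, which can only raise it. With the tests reduced to 9240, a setting added after seeing the data, its adjusted p was 0.011. Lgals7 and Sfn stood at -0.68 (adjusted p = 0.0856) and -0.64 (adjusted p = 0.317) per the authors' deposited table. The 4 positive entries were keratins, Krt5 at 0.27, Krt14 at 0.12, Krt6a at 0.52 and Krt6b at 0.14, and none passed. Past the adjusted test, 0.501% of all entries fell. The part of these cell type values in the results for lipid genes was not tested.

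**Figure D4:**
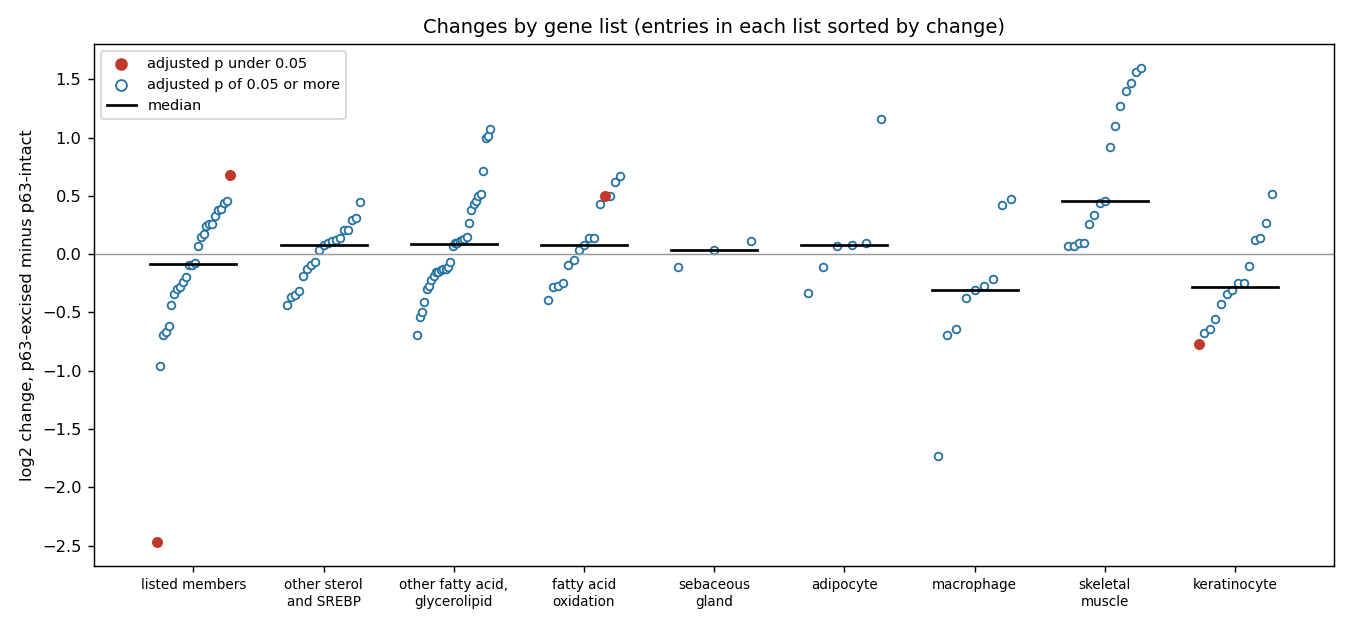
Log2 changes, p63-excised minus p63-intact, of listed entries in each gene list, sorted within a list, with the list's median as a line and filled points for an adjusted p under 0.05. The filled points are Chka and Ebp among the members, Acadl among fatty acid oxidation genes and Col17a1 among keratinocyte markers. All 15 muscle points lie above 0.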

How the data were processed

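RNA of 3 p63-excised and 3 p63-intact tumours was hybridised to bead arrays, per the labels' protocols. Per the file headers, the authors deposited intensity and detection p-value columns for 45281 probes, and log2 values of the same arrays. Their deposited comparison has 16381 entries with, per the file headers, log2 change, signed fold, mean log2 level, t and log-odds scores, and p-value. No source used here gives its normalization, and R 2.12.0 is named by the submitters' processing notes. Probes carry no gene names in the files, so member values come from that table, and the planned test on members' probes was replaced by a count over unnamed probes.

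Benjamini-Hochberg adjustment of its p-values took all 45281 probes as tests, which is an upper bound. The standard error is the log2 change over t, and 95% intervals use 6.69 degrees of freedom, the value at which the table's t gives its p. Implied group levels are the mean level plus or minus 0.5 times the change, if the mean is taken over these 6 arrays alone. Unnamed probes with a detection p under 0.05 on at least 3 arrays were fitted with limma 3.58.1 in R 4.3.3 after neqc (offset 16). Names were matched to RefSeq symbols of GRCm38.p6 (8764 directly, 3104 through an older symbol, 4513 kept). Promoter windows of 250 bases come from RefSeq. The test was planned without a block, since the labels state no pairing of tumours. Deviations of equal replicate numbers correlated at 0.34, 0.38 and -0.06, which does not settle whether a block was needed. Both procedures were run on simulated data with independent values, which checks the code and not how these arrays behave. Members and lists were chosen with earlier results of these data known. Every listed member is given a value, with full statistics for the 10 smallest p-values. The 3 smallest of other lists are named, for some lists with further entries. Python 3.11.15, pandas 2.3.3, numpy 2.4.6 and scipy 1.17.1 were used.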

Additional observations from a re-analysis of the deposited data

How the results depend on the processing

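Chka passed with the listed entries as all tests, with 35457 tests, with a minimum mean log2 level of 5.5 or 6 and with a minimum fold of 1.5, but not with a Bonferroni adjustment. Ebp passed under the same settings except both level minimums (adjusted p = 0.0518 and 0.0648 with the number of tests kept), and it too missed Bonferroni. Dropping entries while keeping the number of tests can only raise an adjusted p. In settings added after seeing the data, Col17a1 missed both level minimums with the number of tests kept (adjusted p = 0.0561 and 0.0704). It passed at a minimum of 5.5 with the tests reduced to 9240 (adjusted p = 0.011). Acadl, at a mean log2 level of 5.42, fell below both minimums. Of the members, 4 passed with the listed entries as tests, a lower bound on the tests that can only make adjusted p smaller. There were 11 at an unadjusted p under 0.05, 0 with Bonferroni and 1 with either level minimum. With a minimum of 5.5 and the tests reduced to 9240, chosen after seeing the data, 4 passed, Fads1 and Elovl5 being the additions. The members' median log2 change of -0.09 became 0.16 above a level of 5.5, where 20 members remain, 0 with unlisted members set to 0, and -0.14 as a mean.

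Unnamed probes that passed numbered 604, and 380 in the authors' value table, 50 with median scaling, 396 with normexp (offset 50), 344 if no background was corrected, 203 with no filter on dim probes, 433 among probes detected on all 6 arrays and 963 with array weights. The replicate number as a block gave 1324. Nothing in the labels pairs tumours of equal number, but their deviations correlated at 0.34 and 0.38 for numbers 1 and 2, and at -0.06 for number 3. Whether the tumours were paired is not known. Leaving out 1 array gave 208 to 626: 313, 208 and 213 without p63-intact array 1, 2 or 3, and 347, 626 and 257 without p63-excised array 1, 2 or 3. The cause was not tested. Median scaling moved the median change of tested probes by -0.19 on the log2 scale. The positive changes of Lss, Cyp51 and Acacb, 3 members, are smaller than that shift. The deposited comparison could not be refitted, so the members' values have no check by array, block or scaling. The number of arrays limits the precision.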

Other observations

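Genes of fatty acid oxidation, the route that breaks down the products of the synthesis genes, held 1 rise among 15 listed entries per the authors' deposited table, with 9 positive and 6 negative. Of all entries, 0.659% rose and 51.0% were positive. Acadl, the long-chain acyl-CoA dehydrogenase gene, rose to an implied log2 level of 5.67 in p63-excised tumours, against 5.17 in p63-intact tumours. Its log2 change was 0.50 ± 0.05 (SE, 95% interval 0.37 to 0.63, adjusted p = 0.0249) per the authors' deposited table. Acadm, the medium-chain enzyme gene, stood at 0.62 (adjusted p = 0.223) and Ppard, a lipid-sensing nuclear receptor gene, at 0.43 (adjusted p = 0.174) per the authors' deposited table. Eci1, an isomerase gene of the same route listed under the older name Dci, stood at 0.67 (adjusted p = 0.273) per the authors' deposited table. Negative entries included Hadhb at -0.39, Ppargc1a at -0.28 (adjusted p = 0.662) and Etfa at -0.27, and none of the negative entries passed. Muscle, which oxidises fatty acids, had all 15 of its markers positive with a median log2 change of 0.46, Des being at 1.40 (adjusted p = 0.105), Atp2a1 at 1.47 (adjusted p = 0.293) and Myh2 at 0.44 (adjusted p = 0.353), per the authors' deposited table. The part of muscle RNA in the rise of Acadl was not tested.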
